A study of Mus musculus with 6 samples.

Results

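IL10/2-Trikine and mono-IL10, 2 engineered forms of interleukin 10 of which the first also carries a part that engages the IL-2 receptor beta chain, were compared in the tumor lymphocytes of treated mice. The cells were those that the authors had annotated as T or NK cells and assigned to a mouse by its hashtag, without the clusters whose names start with Cycling and without the naive clusters naive_CD8T, naive_CD4T and naive_T. Of the 2084 annotated cells of the series, 1383 carried a mouse and 629 met this rule, 263 from 5 IL10/2-Trikine mice and 366 from 5 mono-IL10 mice. NK cells made up 189 of the former and 180 of the latter, and the other kept clusters, called kept T cells here, made up 74 and 186. The rule left out 135 cycling and 2 naive cells of the IL10/2-Trikine group, and 114 cycling and 155 naive cells of the mono-IL10 group.

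Tumors had been grown under the skin of C57BL/6 mice from the pancreatic tumor line 6694c2vTRP1, and all groups carried the same tumor. From day 8, mice were injected into the peritoneum with PBS, with 26 µg of mono-IL10 or with 30.6 µg of IL10/2-Trikine per mouse, in 2 doses every other day, and tumors were taken on day 14. CD45+ cells were isolated with beads, and the isolated cells of each mouse were stained with a hashtag antibody. The cells of the 5 mice of a group were pooled into 1 droplet-based 5′ single-cell library. Treatment and library therefore cannot be told apart in any value given here. Each group holds 5 mice, PBS mice are shown for context, and the ages and sexes of the mice were not among the labels used here.

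Interleukin 10 signals through a receptor of the chains Il10ra and Il10rb, which activates mainly the transcription factor STAT3. Interleukin 2 signals through the beta and common gamma chains, encoded by Il2rb and Il2rg, with the alpha chain Il2ra raising the affinity, and activates mainly STAT5. NK cells and activated T cells carry the beta chain, and STAT5 signaling in them is known to support proliferation and the production of granzymes and perforin, the proteins with which they kill target cells.

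A mouse held 26 to 86 kept cells and 58812 to 223493 UMIs (unique transcripts counted) in the IL10/2-Trikine group, and 24 to 112 kept cells and 134444 to 560485 UMIs in the mono-IL10 group. The median UMIs per kept cell were 2108 to 2704.5 in the IL10/2-Trikine mice and 3536 to 4999 in the mono-IL10 mice, with no overlap. No annotated barcode was shared between libraries. Levels are UMIs of a gene per 1000000 UMIs of the same mouse and cell set (CPM). Differences are fitted log2 fold changes of IL10/2-Trikine over mono-IL10 with a standard error (SE) from edgeR's quasi-likelihood test on the summed counts of each mouse, with the adjusted p over all genes tested and a threshold of 0.05, and a gene is called when its adjusted p is under it. Mice are listed in the order of their hashtags. In summed counts, fewer cells of a type and less RNA per cell cannot be told apart.

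The promoters of 8 genes that the results turn on are shown first, from 250 bases before to 50 after the start of the gene, as RefSeq gives them for the build GRCm38.p6. The cell files themselves were made with GRCm39, so the promoter coordinates are not those of the files. Both strands were searched for TTCNNNGAA, the palindrome known to be bound by STAT dimers, and a match is in capitals. Gzma, at chr13:113100932-113101231 on the minus strand, and Klrb1c, at chr6:128788592-128788891 on the minus strand, are the genes of the study's STAT5 list that were higher after IL10/2-Trikine, and neither holds these letters in this window. Il7r, at chr15:9529827-9530126 on the minus strand, holds TTCAGGGAA from 142 to 134 bases before the start. Ltb, at chr17:35194257-35194556 on the plus strand, holds TTCAGAGAA from 172 to 164 bases before it. Cd3d, at chr9:44981536-44981835 on the plus strand, holds TTCCTAGAA from 197 to 189 bases before it, and Tnfrsf18, at chr4:156026072-156026371 on the plus strand, holds TTCACAGAA from 99 to 91 bases before it. These 4 genes were lower after IL10/2-Trikine and are shown because they hold the motif. Ramp3, at chr11:6658283-6658582 on the plus strand, and Cd8a, at chr6:71373177-71373476 on the plus strand, had larger decreases and do not hold it in this window.
Gzma: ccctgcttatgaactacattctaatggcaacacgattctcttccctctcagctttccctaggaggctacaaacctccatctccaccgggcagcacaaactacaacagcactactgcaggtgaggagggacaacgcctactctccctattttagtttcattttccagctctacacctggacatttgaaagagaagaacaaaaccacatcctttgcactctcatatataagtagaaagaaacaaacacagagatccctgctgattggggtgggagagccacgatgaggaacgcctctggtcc
Klrb1c: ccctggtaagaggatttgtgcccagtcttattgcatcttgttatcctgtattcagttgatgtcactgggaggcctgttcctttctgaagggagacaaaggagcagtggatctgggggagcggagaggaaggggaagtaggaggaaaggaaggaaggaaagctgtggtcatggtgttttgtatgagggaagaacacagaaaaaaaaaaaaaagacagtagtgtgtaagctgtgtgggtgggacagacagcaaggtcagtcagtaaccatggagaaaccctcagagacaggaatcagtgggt
Il7r: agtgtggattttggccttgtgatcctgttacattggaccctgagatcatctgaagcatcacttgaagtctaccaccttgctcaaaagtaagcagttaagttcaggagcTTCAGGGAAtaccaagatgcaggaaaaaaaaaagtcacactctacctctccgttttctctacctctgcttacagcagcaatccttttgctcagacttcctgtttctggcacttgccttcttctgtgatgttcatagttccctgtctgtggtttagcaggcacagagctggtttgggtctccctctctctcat
Ltb: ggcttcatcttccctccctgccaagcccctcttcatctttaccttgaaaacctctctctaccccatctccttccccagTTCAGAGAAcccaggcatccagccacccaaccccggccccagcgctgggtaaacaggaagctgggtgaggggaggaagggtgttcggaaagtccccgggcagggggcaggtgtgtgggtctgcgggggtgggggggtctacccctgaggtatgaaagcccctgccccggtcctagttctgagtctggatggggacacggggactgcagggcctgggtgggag
Cd3d: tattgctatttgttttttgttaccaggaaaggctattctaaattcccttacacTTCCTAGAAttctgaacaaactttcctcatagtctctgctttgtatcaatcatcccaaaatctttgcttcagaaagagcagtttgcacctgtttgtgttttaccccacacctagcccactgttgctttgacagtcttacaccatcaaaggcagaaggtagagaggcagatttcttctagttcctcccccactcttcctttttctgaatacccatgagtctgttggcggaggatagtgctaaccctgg
Tnfrsf18: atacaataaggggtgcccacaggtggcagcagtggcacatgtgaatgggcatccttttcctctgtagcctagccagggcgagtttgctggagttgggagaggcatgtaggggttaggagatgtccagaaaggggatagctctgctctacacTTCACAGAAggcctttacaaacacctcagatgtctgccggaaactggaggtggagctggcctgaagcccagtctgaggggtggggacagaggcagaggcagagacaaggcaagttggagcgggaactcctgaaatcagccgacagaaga
Ramp3: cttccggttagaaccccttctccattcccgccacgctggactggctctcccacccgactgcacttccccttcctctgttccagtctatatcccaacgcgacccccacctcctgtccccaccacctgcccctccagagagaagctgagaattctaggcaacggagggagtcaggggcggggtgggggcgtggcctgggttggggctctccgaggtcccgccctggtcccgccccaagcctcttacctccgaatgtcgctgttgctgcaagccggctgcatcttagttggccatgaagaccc
Cd8a: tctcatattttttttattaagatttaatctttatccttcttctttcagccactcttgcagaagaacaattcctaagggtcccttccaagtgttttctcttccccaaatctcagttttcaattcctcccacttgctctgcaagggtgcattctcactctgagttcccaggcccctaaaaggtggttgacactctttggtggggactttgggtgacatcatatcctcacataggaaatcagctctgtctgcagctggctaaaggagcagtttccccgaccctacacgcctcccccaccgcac

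The motif stood in 5 of the 40 called higher genes that had a promoter in the table (12.5%), in 12 of the 75 called lower genes (16.0%), in 0 of the 11 higher and 2 of the 10 lower genes named by size with a promoter there, in 229 of the 2657 genes tested (8.62%) and in 2582 of the 27025 genes of the table (9.55%). The promoters of a whole chromosome were left out before counting, so its genes count here as having no promoter and are not among the 27025. These shares are descriptions of the letters in 300 bases and carry no test.

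NK cells took a larger share of the kept lymphocytes after IL10/2-Trikine, and activated CD4 T cells a smaller one. The NK share was 57.1, 70.9, 73.1, 81.3 and 76.6% in the IL10/2-Trikine mice, and 51.5, 48.6, 37.5, 48.2 and 52.5% in the mono-IL10 mice. No mouse of a group reached the other, with means of 71.8 ± 9.08% and 47.7 ± 5.98% (SD, n = 5 each; exact two-sided permutation test over mice, p = 0.00794, the smallest that 5 against 5 mice allow, adjusted p over 6 clusters 0.0238). The activated CD4 T cell cluster took 3.85 to 11.9% against 13.9 to 25.4%, again with no overlap (8.42 ± 3.24% and 18.8 ± 4.26%, adjusted p = 0.0238 by the same exact test). The cluster of interferon-stimulated CD8 T cells took 0.26% and 2.17% on average (adjusted p = 0.0476, exact test), and rested on a few cells: 4 of the 5 IL10/2-Trikine mice had none, and leaving out any 1 mouse other than IL10/2-Trikine mouse 5 raised the adjusted p above the threshold. With 1 mouse left out, the smallest p that the exact test allows is 0.0159, and the difference was -2.23 to -1.41 percentage points.

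The shares of regulatory T cells, 8.42 ± 7.46% and 13.2 ± 4.52%, and of the gamma-delta T and NKT cluster, 11.1 ± 3.64% and 15.6 ± 3.75%, did not pass the exact test (adjusted p = 0.295 and 0.143). Regulatory T cells, which restrain other T cells, made up 21.4% of the kept cells of IL10/2-Trikine mouse 1 and 3.13 to 7.69% in the other 4 mice of that group. Th17 cells and innate lymphoid cells were not detected among the kept cells of all 5 IL10/2-Trikine mice and of 3 of the 5 mono-IL10 mice. For the IL10/2-Trikine group this is 0 of 263 cells, so that counting error alone permits a share as high as 1.14% when the cells of the 5 mice are pooled. That limit leaves out the spread between mice. It is wider for a single mouse, with as few as 26 kept cells. Counted in UMIs, NK cells gave 74.1% of the summed signal after IL10/2-Trikine and 56.8% after mono-IL10, so levels over all kept lymphocytes carry this mix, and levels within NK cells and within kept T cells are given beside them.

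**Figure D1:**
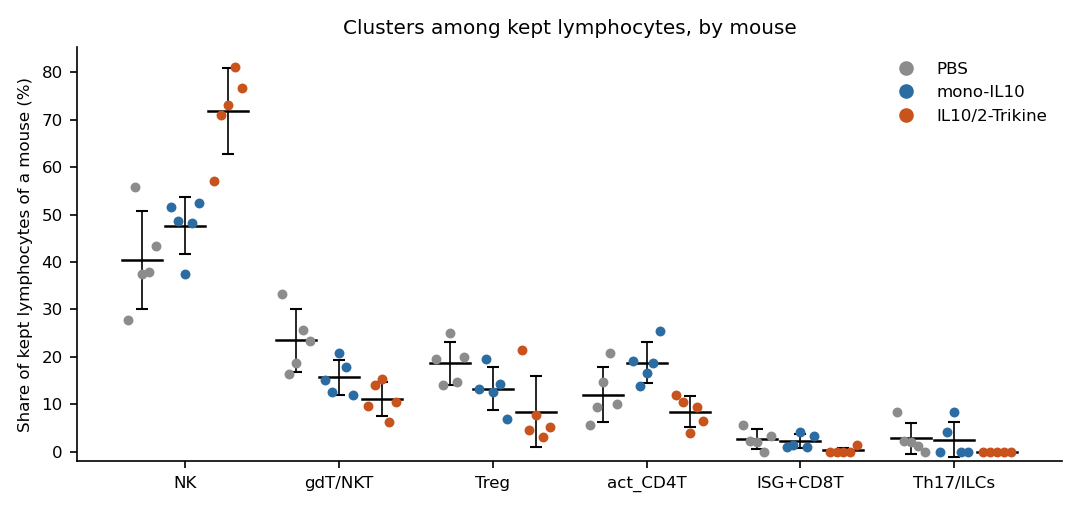
Share of each annotated cluster among the kept lymphocytes of a mouse, in percent, with 1 point per mouse and the group mean ± SD. The 5 IL10/2-Trikine mice sit at 57.1 to 81.3% NK cells, above all 5 mono-IL10 mice at 37.5 to 52.5%.

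The split into NK cells and kept T cells was checked against known markers. In NK cells, 8 NK markers summed to 10563 to 17903 CPM in the IL10/2-Trikine mice and 9004 to 10363 CPM in the mono-IL10 mice, and 7 T cell markers to 142 to 244 and 158 to 280.0 CPM. In kept T cells, the T cell markers summed to 2301 to 2975 CPM in the 3 IL10/2-Trikine mice with enough cells and to 3306 to 5244 CPM in the 5 mono-IL10 mice, and the NK markers to 2877 to 4731 and 1164 to 2801 CPM. The kept T cells of the IL10/2-Trikine mice carried more NK marker RNA and less T cell marker RNA than those of the mono-IL10 mice, without overlap in either. NK markers had more UMIs than T cell markers in 27.8 to 50% of kept T cells of the 5 IL10/2-Trikine mice and in 14.6 to 20% of those of the 5 mono-IL10 mice. The part of this in the differences within kept T cells was tested only as given beside them. RNA of other cell types was present as well: at least 3 UMIs of macrophage or tumor epithelial markers were found in 29.9 to 53.1% of the kept cells of the IL10/2-Trikine mice and in 33.3 to 49.2% of those of the mono-IL10 mice, and macrophage or monocyte markers summed to 737 to 1639 and 327 to 2487 CPM. Results given without cells carrying macrophage or tumor RNA leave these cells out.

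Over all kept lymphocytes, 149 of 3316 genes tested were called (4.49%), with 50 higher (1.51%) and 99 lower (2.99%) after IL10/2-Trikine. The IL10/2-Trikine mice were all above the mono-IL10 mice in 39 of the 50 and all below them in 72 of the 99. Such a separation was seen in 6.76% of all genes tested, 3.26% above and 3.50% below. Genes named by size below were taken only among called genes without overlap, so their separation follows from the naming rule. The median difference was 0.78 among the higher and -0.74 among the lower genes, beside 0.00 over all genes tested. Leaving out any 1 mouse gave 87 to 160 calls, with the fewest without IL10/2-Trikine mice 2, 4 and 5 (92, 87 and 95) and mono-IL10 mouse 1 (95). Of the 58 called genes that the naming rule took over all kept lymphocytes, none passed with the NK share of each mouse as a covariate. As the NK share did not overlap between the groups, that fit separates the share from the treatment poorly. A call lost or a sign changed in it does not show which of them a difference follows. Equal weight of NK and kept T cells needed mice with at least 10 cells of both, 3 IL10/2-Trikine and 4 mono-IL10 mice, and log levels tested by limma, and 15 of the 58 passed there. In the same mice and with the same limma test but summed counts, 32 passed, so that the losses at equal weight come with fewer mice as well as with the weighting. Without cells carrying macrophage or tumor RNA, 45 of the 58 could be tested and 21 passed. The 24 calls lost in that fit kept their direction, with differences of 0.62 to 1.44 times those with all kept cells and a median of 0.89 times. They were those of Ncr1, Klre1, Cd244a, Mcm6, Il7r, Ltb, Tigit, Tnfsf11, Ramp3, Tnfrsf4, Tnfrsf18, Pdcd1, Tcf7, Ccr7, Ccl5, Jak2, Isg15, H2-K1, Rpl38, Gimap3, Mxi1, Ndufa6, Psmb2 and Uqcr11.

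Gzma, which encodes the secreted protease granzyme A, had the largest increase among genes named by size over all kept lymphocytes. It was at 1808, 3199, 6529, 3705 and 3289 CPM in the IL10/2-Trikine mice and at 909.9, 1682, 989, 1362 and 1309.9 CPM in the mono-IL10 mice. Every IL10/2-Trikine mouse was above every mono-IL10 mouse, with IL10/2-Trikine mouse 3 highest, and the difference was 1.49 (SE 0.21, adjusted p = 0.000356). PBS mice lay at 44.8 to 897 CPM, below all mono-IL10 mice. Within NK cells Gzma was at 2657, 3605, 8621, 3983 and 4099 CPM against 1506, 2174, 1952 and 1665 CPM in the 4 mono-IL10 mice with at least 10 NK cells. The groups were again apart, with a difference of 1.25 (SE 0.22, adjusted p = 0.005), and the call was kept without any 1 mouse in both sets of cells. Over all kept lymphocytes it was lost at equal weight of NK and kept T cells (0.78, adjusted p = 0.255), where summed counts of the same mice gave 1.04, adjusted p = 0.0149, and with the NK share as a covariate (0.57, adjusted p = 0.789), and within NK cells with PBS mice in the fit (1.27, adjusted p = 0.153).

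NK receptors were higher over all kept lymphocytes in 4 of 26 tested genes of a list of 32 and lower in 0, and the median of the tested genes was 0.06. Of all genes tested, 1.51% were called higher and 2.99% lower. Klrb1c, the antigen NK1.1, was at 321, 268, 425, 273 and 319 CPM after IL10/2-Trikine and at 152, 156, 126, 125 and 172 CPM after mono-IL10. Each group kept to its own range, and the difference was 1.04 (SE 0.15, adjusted p = 0.000403). Ncr1, the activating receptor NKp46, was at 217, 179, 255, 273 and 184 CPM against 125, 116, 134, 120.5 and 129 CPM. It too was higher in every IL10/2-Trikine mouse, by 0.73 (SE 0.16, adjusted p = 0.0109). Klre1, another lectin-like receptor of NK cells, ranged from 289 to 425 against 164 to 272 CPM, with a difference of 0.55 (SE 0.14, adjusted p = 0.0288). Cd244a, the receptor 2B4, was at 80.3 to 206 against 66.9 to 109 CPM with overlap through IL10/2-Trikine mouse 1, and its difference of 0.79 (SE 0.21, adjusted p = 0.0296) changed to -0.28 when the NK share was a covariate.

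Within NK cells alone 1 of 24 tested NK receptor genes was called, Klrb1c, at 439, 341, 456, 296 and 398 CPM against 240.2, 239, 181 and 248 CPM. Both groups stood apart, with a difference of 0.69 (SE 0.17, adjusted p = 0.0489), but the call was kept in 1 of the 9 fits that left out a mouse. It was kept in 3 of 9 other settings and lost, among others, without cells carrying macrophage or tumor RNA. Over all these fits the difference was 0.19 to 0.77. Of the 24 genes 10 were fitted above 0, with a median of -0.17, and at an unadjusted p under 0.05 there were 1 higher and 6 lower. Of all 2701 genes tested in NK cells, 403 had such a p in either direction, and 0.481% were called higher. The mix of clusters alone, with each cluster held at its mono-IL10 level, gave differences of 0.32 for Klrb1c, 0.36 for Ncr1 and 0.24 for Gzma. The calls of Klrb1c and Ncr1 over all kept lymphocytes were kept in all 10 fits that left out a mouse, while those of Klre1 and Cd244a were kept in 4 and 3. None of the 4 passed at equal weight of NK and kept T cells, where Klrb1c stood at 0.73, adjusted p = 0.0694, and Ncr1 at 0.93, adjusted p = 0.0573. Summed counts of the same mice gave 0.96, adjusted p = 0.0082, and 0.61, adjusted p = 0.0764. The STAT5 list of the study, 10 genes that include granzymes, perforin and NK receptors, had 2 called higher of 10 tested, Gzma and Klrb1c, and a median of 0.32 over all kept lymphocytes and 0.14 within NK cells. The study took this list from the literature. Over all kept lymphocytes, 1.51% of all genes tested were called higher.

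Among granule genes, Ctsd, the lysosomal protease cathepsin D, was at 771, 577, 527, 626 and 628 CPM against 360.4, 316, 290.1, 402 and 511 CPM. It was higher in every IL10/2-Trikine mouse, by 0.69 (SE 0.16, adjusted p = 0.0139). Srgn encodes serglycin, the proteoglycan that holds granzymes in granules, and stood at 2169, 1794, 1785, 1666 and 1784 CPM against 2476, 2785, 3540.5, 2438 and 2418 CPM. It was lower in every IL10/2-Trikine mouse, with a difference of -0.60 (SE 0.11, adjusted p = 0.00287), and also within NK cells (-0.59, adjusted p = 0.00951), there not without mono-IL10 mouse 1 (adjusted p = 0.057). Over all kept lymphocytes 1.51% of all genes tested were called higher and 2.99% lower. Of 16 tested granule and death ligand genes in a list of 20, 2 were higher and 1 lower, with a median of -0.14. Within NK cells 18 were tested, with 1 higher, Gzma, 1 lower, Srgn, and a median of -0.33, and at an unadjusted p under 0.05 there were 2 higher and 6 lower. Such a p was reached by 403 of all 2701 genes tested in NK cells, in either direction.

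Other genes named by size were higher as well. Arsb, which encodes the lysosomal enzyme arylsulfatase B, was at 289, 389, 442, 414 and 409 CPM against 169.5, 189, 134, 192 and 239 CPM. Every IL10/2-Trikine mouse was above every mono-IL10 mouse, with differences of 0.999 (SE 0.15, adjusted p = 0.000593) over all kept lymphocytes and 0.76 (SE 0.15, adjusted p = 0.0118) within NK cells, the second lost without mono-IL10 mouse 1 (adjusted p = 0.0712). The first was lost at equal weight of NK and kept T cells (0.40, adjusted p = 0.363), where summed counts of the same mice gave 0.84, adjusted p = 0.0244. Slc24a3, an exchanger of sodium, calcium and potassium, differed by 1.40 (SE 0.25, adjusted p = 0.00313), with 80.3 to 105 against 25.0 to 53.1 CPM. Lpgat1, an enzyme of phospholipid synthesis, differed by 1.25 (SE 0.29, adjusted p = 0.0176), a call that was lost without IL10/2-Trikine mouse 1 or mono-IL10 mouse 1 (adjusted p up to 0.0627). Aoah, a lipase that acts on bacterial lipopolysaccharide, differed by 0.99 (SE 0.26, adjusted p = 0.0293), past the threshold in 4 of 10 fits that left out a mouse. Selenon, a selenoprotein of the endoplasmic reticulum, differed by 1.18 (SE 0.32, adjusted p = 0.0378), a call kept in 3 of 9 such fits, and stood at -0.036 when NK and kept T cells had equal weight.

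Some genes of the cytoskeleton and of DNA replication were also higher, although cells of the cycling clusters had been left out. Tuba1b, an alpha tubulin, was at 281, 157, 119, 162 and 189 CPM against 89.2, 39.9, 89.3, 53.1 and 86.2 CPM. The groups did not overlap, and the differences were 1.36 (SE 0.25, adjusted p = 0.00338) over all kept lymphocytes and 1.33 (SE 0.27, adjusted p = 0.0154) within NK cells, where IL10/2-Trikine mouse 5 and mono-IL10 mouse 4 were each needed for the call (adjusted p up to 0.0592 without them) and the call was lost without cells carrying macrophage or tumor RNA (1.32, adjusted p = 0.0646). Actb, the beta actin of the cytoskeleton, was at 6966, 6738, 7430.5, 7057 and 6667 CPM against 4218, 4503, 4113, 3626 and 4845 CPM. It was higher in every IL10/2-Trikine mouse, by 0.66 (SE 0.07, adjusted p = 1.41e-05), by 0.59 (SE 0.08, adjusted p = 0.000661) within NK cells and by 0.82 (SE 0.11, adjusted p = 0.00423) within kept T cells, and none of these 3 calls was lost without any 1 mouse. In kept T cells, the actin call was lost without cells that carried macrophage or tumor RNA, in a fit with 2 IL10/2-Trikine mice and a difference of about the same size (0.81, adjusted p = 0.201). Wdr1, which helps cofilin to take actin filaments apart, was at 399.8, 341, 456, 332 and 379 CPM against 187, 198, 167 and 221 CPM in NK cells. It was higher in every IL10/2-Trikine mouse, by 0.90 (SE 0.16, adjusted p = 0.005). Pfn1, which encodes profilin and binds actin monomers, moved the other way, at 2261 to 2436 against 2844 to 3133 CPM over all kept lymphocytes (-0.38, adjusted p = 0.0036). Actb and Pfn1 were the called members among 28 tested actin genes, whose median was 0.12, where 4.49% of all genes tested were called.

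The replication helicase gene Mcm6 was at 112, 121, 102, 141 and 144 CPM against 73.2, 76.4, 22.3, 44.9 and 59.7 CPM. No mouse of a group reached the other, with a difference of 1.06 (SE 0.24, adjusted p = 0.0143) that was past the threshold without any 1 mouse except IL10/2-Trikine mouse 5 (adjusted p = 0.0546). Its partner Mcm4 differed by 1.12 (SE 0.29, adjusted p = 0.0293), kept in 5 of 10 fits that left out a mouse. Dnmt1, which copies DNA methylation onto new strands, differed by 1.10 (SE 0.25, adjusted p = 0.017), and was not past the threshold without IL10/2-Trikine mouse 2 or 4 (adjusted p up to 0.0788). Cbx5, the heterochromatin protein HP1 alpha, differed by 1.19 (SE 0.25, adjusted p = 0.0109), with 50.5 to 94.7 against 22.3 to 46.5 CPM. Of 34 cell cycle genes, 10 were tested and 2 were called, both higher, with a median of 0.46, where 1.51% of all genes tested were higher. Within NK cells, Cenpw of the centromere (1.30, adjusted p = 0.0489), Usp1, a protease that removes ubiquitin in DNA repair (1.21, adjusted p = 0.0423), and Nono, an RNA-binding protein of the nucleus (0.80, adjusted p = 0.0489), were higher with no overlap, but these 3 calls were kept in 0, 1 and 1 of 9 fits that left out a mouse.

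**Figure D2:**
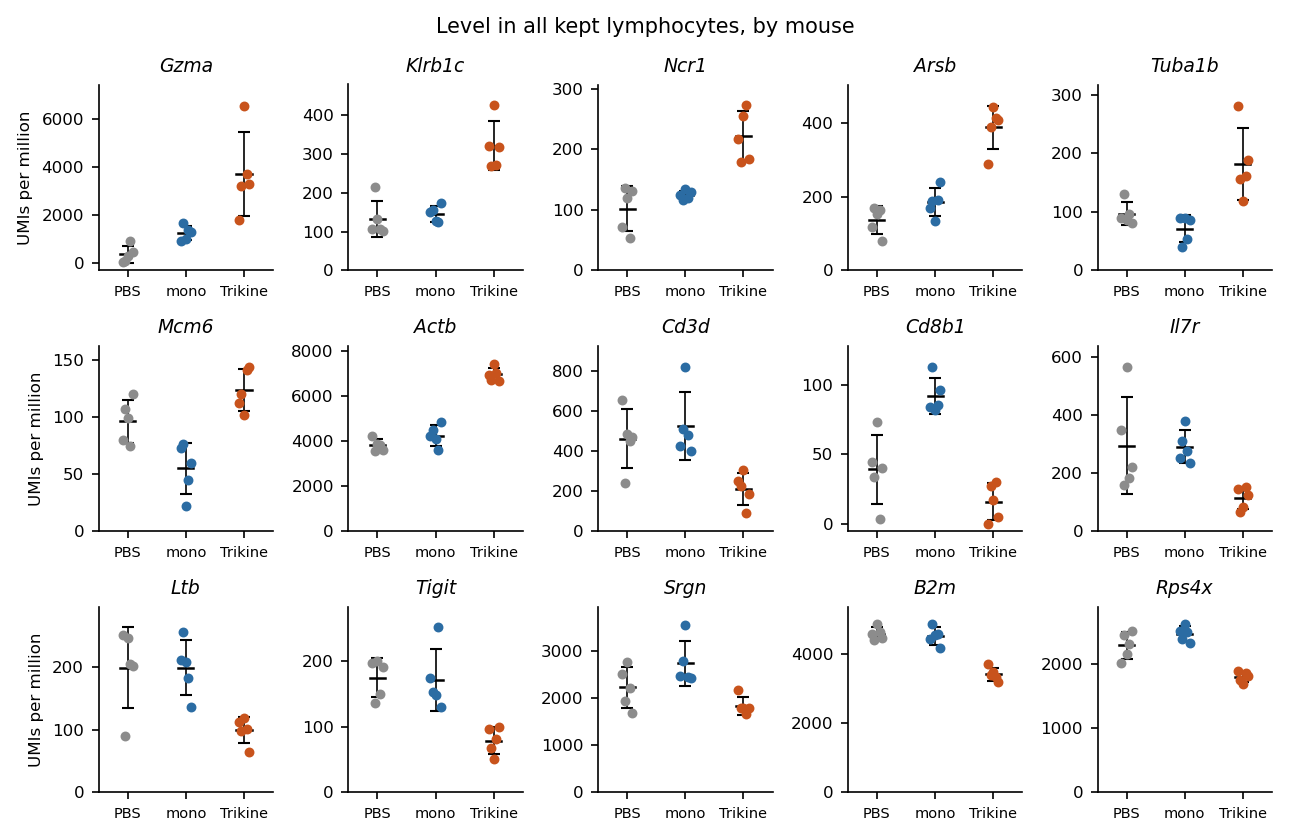
Levels of 15 genes over all kept lymphocytes, in CPM, with 1 point per mouse and the group mean ± SD for PBS, mono-IL10 (mono) and IL10/2-Trikine (Trikine). In all 15 genes every IL10/2-Trikine mouse lies on 1 side of every mono-IL10 mouse: above it in Gzma to Actb, and below it in Cd3d to Rps4x. Only genes without overlap are shown, so this separation follows from the choice. Called genes with overlap, such as Cd244a, Tnfrsf4 and Klf2, are not shown.

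Transcripts of the T cell receptor and its signaling proteins were lower over all kept lymphocytes. Of 21 tested genes in a list of 24, 9 were lower and 0 higher, with a median of -0.48, where 2.99% of all genes tested were lower. Cd3d, a chain of the CD3 complex, was at 249, 224, 306, 90.9 and 184 CPM against 425, 508, 818, 482 and 398 CPM. Every IL10/2-Trikine mouse was below every mono-IL10 mouse, of which mouse 3 was highest, and the difference was -1.35 (SE 0.23, adjusted p = 0.00158). Cd3g, another CD3 chain, differed by -1.65 (SE 0.26, adjusted p = 0.000813), and Lat, the adaptor that links the receptor to its signaling enzymes, with a difference of -1.40 (SE 0.26, adjusted p = 0.00361). Themis, a regulator of T cell receptor signaling, was at 0 to 80.3 against 85.7 to 164 CPM, a difference of -1.85 (SE 0.36, adjusted p = 0.00571). The calls of Cd3d, Cd3g, Lat and Themis were kept without any 1 mouse, and the cluster mix alone gave -0.73, -0.84, -0.50 and -1.08. All 4 calls were lost at equal weight of NK and kept T cells, with -0.03, -0.25, -0.92 and -0.47 (adjusted p from 0.0943 to 0.971), while summed counts of the same mice gave -1.05, -1.28, -1.32 and -1.33 with all 4 past the threshold. They were also lost with the NK share as a covariate. Within kept T cells, which held less T cell marker RNA as given above, 0.457% of all genes tested were called. Of 22 tested genes of the list 1 was called there, and the median was -0.42.

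That gene was Cd8b1, the beta chain of the CD8 coreceptor, and it had the largest decrease among genes named by size. It was at 0, 26.8, 17.0, 30.3 and 4.98 CPM against 83.9, 113, 81.8, 85.7 and 96.2 CPM over all kept lymphocytes. Each group kept to its own range, with a difference of -2.55 (SE 0.38, adjusted p = 0.000451). Within kept T cells it was at 0, 61.4 and 22.2 CPM in IL10/2-Trikine mice 1, 2 and 5 and at 196, 239.7, 154, 214 and 259.5 CPM in the mono-IL10 mice, from 5 and 160 UMIs in all. It was again lower in each of the 3 mice, with a difference of -2.71 (SE 0.49, adjusted p = 0.0173), a call that was lost without IL10/2-Trikine mouse 1 or 5 or mono-IL10 mouse 2 or 4 (adjusted p up to 0.119). Cd8a, the alpha chain, differed by -2.15 (SE 0.44, adjusted p = 0.00773) over all kept lymphocytes, and Cd4, the other coreceptor, with a difference of -1.52 (SE 0.36, adjusted p = 0.0201). The Cd4 call was lost without IL10/2-Trikine mouse 4 or 5 or mono-IL10 mouse 1 (adjusted p up to 0.0676). At equal weight of NK and kept T cells none of the 3 coreceptor genes passed, with Cd8b1 at -1.35, adjusted p = 0.0917, Cd8a at -0.87, adjusted p = 0.222, and Cd4 at -0.04, adjusted p = 0.969. Summed counts of the same mice gave -2.92, adjusted p = 0.00357, for Cd8a -1.95, adjusted p = 0.0226, and for Cd4 -0.94, adjusted p = 0.0957. The naive clusters that the rule left out held 2 cells of the IL10/2-Trikine group and 155 of the mono-IL10 group. Among kept cells, the interferon-stimulated CD8 T cell cluster held 0, 0, 0, 0 and 1 cells in the IL10/2-Trikine mice. It held 1, 1, 1, 1 and 2 in the mono-IL10 mice. The cluster mix alone gave -1.24 for Cd8b1, -1.24 for Cd8a and -0.999 for Cd4. The part of CD8 T cell numbers in these differences was not tested.

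Cytokine and chemokine genes of lymphocytes were lower in 4 of 10 tested genes of a list of 21 and higher in 0, with a median of -0.86. Of all genes tested, 2.99% were lower. Ltb, which encodes lymphotoxin beta, a membrane ligand that shapes lymphoid tissue, was at 112, 98.4, 119, 101 and 64.8 CPM against 211, 256, 208, 182 and 136 CPM. Both groups stood apart, and the difference was -1.10 (SE 0.20, adjusted p = 0.0036), lost without cells carrying macrophage or tumor RNA (-0.97, adjusted p = 0.0715) and at equal weight (-1.29, adjusted p = 0.0556), where summed counts of the same mice gave -1.05, adjusted p = 0.0329. Tnfsf11, the ligand RANKL, was at 16.1, 80.5, 51.0, 80.8 and 79.7 CPM against 153, 96.4, 379, 188 and 149 CPM. It was lower in every IL10/2-Trikine mouse, with a difference of -1.44 (SE 0.35, adjusted p = 0.0214), and was not past the threshold without IL10/2-Trikine mouse 1 (adjusted p = 0.0579) or at equal weight (-0.62, adjusted p = 0.453), where summed counts of the same mice gave -1.45, adjusted p = 0.0715. Xcl1, a chemokine that attracts cross-presenting dendritic cells, differed by -0.67 (SE 0.19, adjusted p = 0.0489) and Ccl5, which attracts T cells and monocytes, with a difference of -0.98 (SE 0.28, adjusted p = 0.0489). Both overlapped between the groups, and each call was kept in 2 of 10 fits that left out a mouse. Xcl1 had 1516 to 2481 CPM in PBS mice, beside 1138 to 1890.3 after mono-IL10 and 510.1 to 1545 after IL10/2-Trikine.

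Several receptors of lymphocytes were lower as well. Il7r, the receptor chain for the survival cytokine IL-7, was at 145, 67.1, 85.0, 151 and 125 CPM against 253, 312, 379, 276 and 235 CPM. The groups did not overlap, and the difference was -1.37 (SE 0.20, adjusted p = 0.000496), kept without any 1 mouse. It was not past the threshold without cells carrying macrophage or tumor RNA (-1.01, adjusted p = 0.0515) or at equal weight (-1.07, adjusted p = 0.0616), where summed counts of the same mice gave -1.29, adjusted p = 0.0082. Cxcr6, a chemokine receptor of resident lymphocytes, was at 10.1 to 112 against 143 to 223 CPM and differed by -1.34 (SE 0.29, adjusted p = 0.0121), with an adjusted p of 0.0564 without IL10/2-Trikine mouse 5. Of 10 tested genes of naive and stem-like T cells, 4 were lower and 0 higher, with a median of -0.33. These were Il7r, Tcf7, Klf2 and Ccr7, where 2.99% of all genes tested were lower. Tcf7, the transcription factor TCF-1, differed by -1.04 (SE 0.27, adjusted p = 0.0293), Klf2, which controls exit from tissue, with a difference of -1.97 (SE 0.53, adjusted p = 0.0337), and Ccr7, the receptor for homing to lymph nodes, with a difference of -1.49 (SE 0.41, adjusted p = 0.0378). The groups overlapped in all 3, and their calls were kept in 4, 3 and 2 of 10 fits that left out a mouse.

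Ramp3, a partner protein of the calcitonin receptor-like receptor, was at 8.03, 40.3, 34.0, 60.6 and 29.9 CPM against 119.5, 113, 379, 188 and 92.9 CPM. No mouse of a group reached the other, with a difference of -2.25 (SE 0.44, adjusted p = 0.00571), and the call was lost, at -1.80, adjusted p = 0.0715, without the cells that carried macrophage or tumor RNA. Nfkbib, an inhibitor of NF-kappaB, differed by -1.55 (SE 0.34, adjusted p = 0.0122), with an adjusted p of 0.0537 without IL10/2-Trikine mouse 5. Swt1, an RNA endonuclease, differed by -1.39 (SE 0.36, adjusted p = 0.0296), a call kept in 3 of 7 fits that left out a mouse, and its difference was 0.11 when the NK share was a covariate.

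Among inhibitory receptors, Tigit, which competes with an activating receptor for its ligand, was at 96.4, 67.1, 51.0, 80.8 and 99.7 CPM against 175, 153, 149, 251 and 129 CPM. Every IL10/2-Trikine mouse was below every mono-IL10 mouse, with a difference of -1.14 (SE 0.23, adjusted p = 0.00665) kept without any 1 mouse. The cluster mix alone gave -0.06 for Tigit, and its call was lost without cells carrying macrophage or tumor RNA (-1.03, adjusted p = 0.0699) and at equal weight (-0.88, adjusted p = 0.0573), as it was in summed counts of the same mice (-0.95, adjusted p = 0.0535). Pdcd1, the receptor PD-1, differed by -0.99 (SE 0.26, adjusted p = 0.0293) with overlap, kept in 5 of 10 such fits. With Cd244a higher, 1 of 11 tested checkpoint genes was higher and 2 were lower, and the median was -0.29. Of all genes tested, 1.51% were higher and 2.99% lower.

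A pair of costimulatory receptors of the TNF receptor family, which regulatory and activated T cells carry, were lower. Tnfrsf4, the receptor OX40, was at 233, 107, 238, 60.6 and 74.7 CPM against 296, 495, 372, 400.2 and 146 CPM. The groups overlapped through mono-IL10 mouse 5, and the difference was -1.43 (SE 0.32, adjusted p = 0.0123), beside -0.58, adjusted p = 0.36, at equal weight and -1.27, adjusted p = 0.0875, in summed counts of the same mice. Tnfrsf18, the receptor GITR, was at 337, 215, 238, 151 and 119.6 CPM against 384, 349, 387, 374 and 282 CPM. It overlapped too, with IL10/2-Trikine mouse 1 above mono-IL10 mouse 5, and the difference of -0.81 (SE 0.20, adjusted p = 0.0214) became 0.11 when the NK share was a covariate. The Tnfrsf4 call was lost without IL10/2-Trikine mouse 2 or 5 (adjusted p up to 0.0561), and the Tnfrsf18 call without IL10/2-Trikine mouse 2, 4 or 5 or mono-IL10 mouse 1 (adjusted p up to 0.0938). They were the 2 called among 10 tested genes of regulatory T cells, with a median of -0.54 over all kept lymphocytes and -0.04 over 11 tested genes within kept T cells, where none was called. Over all kept lymphocytes, 2.99% of all genes tested were lower.

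The added part engages the beta chain Il2rb, and the study describes it as mutated so that it no longer binds the common gamma chain. The 3 IL-2 receptor chains were tested over all kept lymphocytes and within kept T cells, and Il2rb and Il2rg within NK cells. None was called by edgeR in these sets as defined above, and Il2ra in kept T cells did not overlap between the groups. It was at 1556, 952 and 821 CPM in IL10/2-Trikine mice 1, 2 and 5 and at 509, 812, 365, 632 and 304 CPM in the mono-IL10 mice. The 3 mice were above all 5 (1109.8 ± 392 and 524 ± 205 CPM, SD), where 5.49% of genes tested in kept T cells were, and the difference of 1.06 (SE 0.29, adjusted p = 0.0969) did not pass the threshold. It passed by DESeq2 (1.08, adjusted p = 0.0439), with no filter on low counts (0.78, adjusted p = 0.0271) and with a minimum of 5 cells per mouse (1.14, adjusted p = 0.0441). Regulatory T cells, which carry Il2ra at rest, were 9 of the 18 kept T cells of IL10/2-Trikine mouse 1, 4 of the 25 of mouse 2 and 4 of the 18 of mouse 5. In the mono-IL10 mice they were 13 of 48, 14 of 37, 3 of 15, 16 of 58 and 4 of 28. Without regulatory T cells, which left 2 IL10/2-Trikine mice, the Il2ra difference was 0.30 (adjusted p = 0.933). It was 1.23 without the gamma-delta T and NKT cluster (adjusted p = 0.083). Without the T cells in which NK markers outnumbered T cell markers, at a minimum of 5 cells, it was 1.32 (adjusted p = 0.076). Without cells carrying macrophage or tumor RNA, also in 2 IL10/2-Trikine mice, it was 1.08 (adjusted p = 0.615). The part of regulatory T cells in it was not tested further.

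Il2rb, the chain that the added part engages, was at 1052, 1199, 1445, 1282 and 1390.2 CPM against 901, 1054, 840.5, 1137 and 962 CPM over all kept lymphocytes. The groups overlapped, and the difference of 0.33 (SE 0.11, adjusted p = 0.0804) did not pass the threshold, nor did 0.12 (adjusted p = 0.757) within NK cells and 0.47 (adjusted p = 0.33) within kept T cells. Over all kept lymphocytes Il2rb passed by DESeq2 (0.33, adjusted p = 0.0487), and by edgeR with the cycling clusters (0.36, adjusted p = 0.0241), the naive clusters (0.54, adjusted p = 0.0018) or both included (0.49, adjusted p = 0.000829). Il2rg, the common gamma chain, was at 255 to 327 against 206 to 449 CPM, with -0.30 (adjusted p = 0.362). The IL-10 receptor chains had too few UMIs to be tested: Il10ra had 8 UMIs in the IL10/2-Trikine group and 44 in the mono-IL10 group, with 0 to 24.1 and 12.2 to 44.6 CPM per mouse, and Il10rb had 23 and 55 UMIs, with 20.2 to 40.2 and 19.6 to 39.8 CPM.

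Stat3 was at 683 to 907 CPM after IL10/2-Trikine and 779 to 972 CPM after mono-IL10, with a difference of -0.14 (SE 0.11, adjusted p = 0.546). Stat5a and Stat5b, the transcription factors downstream of the IL-2 receptor, differed by -0.40 (adjusted p = 0.477) and -0.86 (adjusted p = 0.0944), and neither passed. Stat5b passed, lower, with no filter on low counts (-0.94, adjusted p = 0.0205) and with the cycling clusters (-0.94, adjusted p = 0.0145), the naive clusters (-1.002, adjusted p = 0.0293) or both included (-1.05, adjusted p = 0.00498). The kinase gene Jak2 was lower, at 102 to 153 against 143 to 243 CPM with overlap (-0.71, adjusted p = 0.0367), a call kept in 3 of 10 fits that left out a mouse. Jak2 and Il7r were the called members of 18 tested receptor and JAK-STAT genes, whose median was -0.29. The feedback genes Cish (0.17, adjusted p = 0.792), Socs1 (-0.57, adjusted p = 0.362), Socs2 (0.25, adjusted p = 0.822) and Socs3 (-0.44, adjusted p = 0.485), which restrain JAK-STAT signaling, did not pass. Each overlapped between the groups. Of 17 tested genes of STAT feedback and IL-2 response, 2 were lower, Tnfrsf4 and Tnfrsf18, and 0 higher, with a median of -0.17. Beside this list and the receptor and JAK-STAT genes, 2.99% of all genes tested were lower. Of 8 tested STAT3 and IL-10 response genes none was called by edgeR, with 4 of them at an unadjusted p under 0.05, all lower, and a median of -0.45. Over all genes tested, 637 of 3316 had such a p in either direction.

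**Figure D3:**
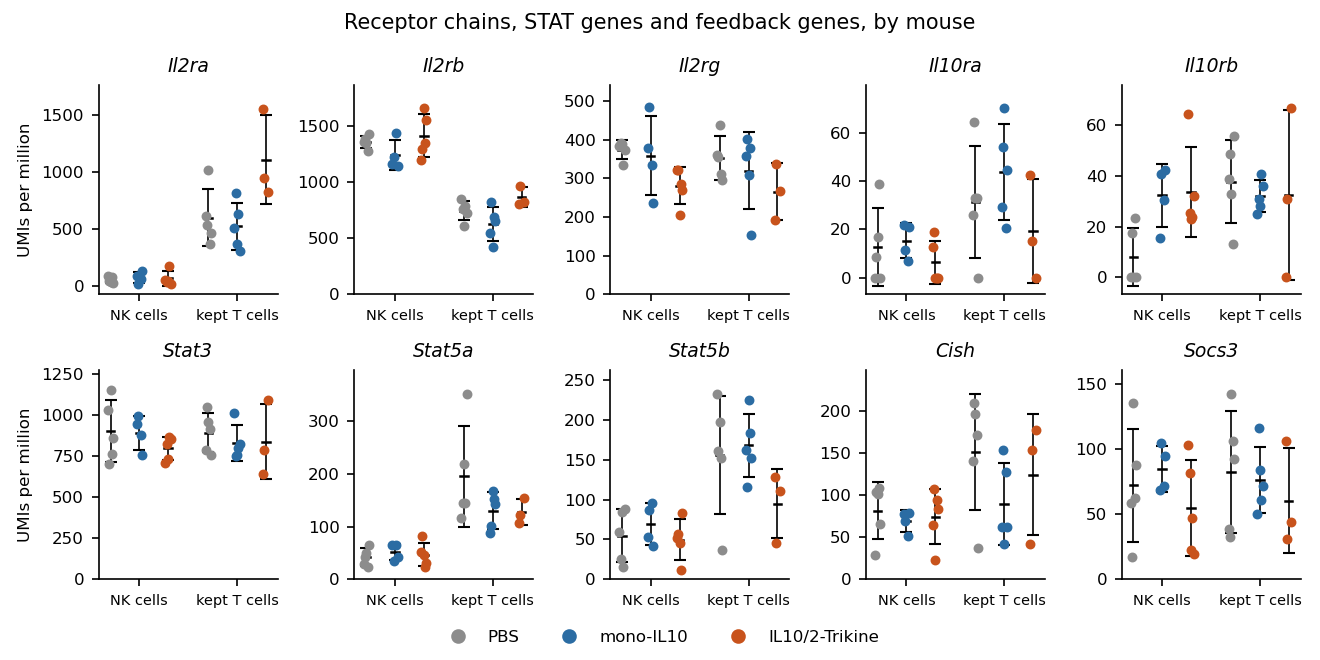
Levels of receptor chains, STAT genes and feedback genes within NK cells and within kept T cells, in CPM, with 1 point per mouse that had at least 10 cells of the class and the group mean ± SD. In Il2ra within kept T cells, 3 IL10/2-Trikine mice at 821 to 1556 lie above the mono-IL10 mice at 304 to 812.

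Within NK cells, 31 of 2701 genes tested were called (1.15%), with 13 higher (0.481%) and 18 lower (0.666%), in 5 IL10/2-Trikine and 4 mono-IL10 mice. The mice were apart in 6.11% of genes tested in NK cells, with 3.92% above and 2.18% below. Leaving out any 1 mouse gave 11 to 44 calls, with 14 and 18 without IL10/2-Trikine mice 2 and 5 and 11 without mono-IL10 mouse 1. Among the lower genes, H3f3b, which encodes the replacement histone H3.3, was at 1096, 1174, 1163, 1079 and 1439 CPM against 2146, 2087, 1928 and 2013 CPM. Each group kept to its own range, and the difference was -0.83 (SE 0.12, adjusted p = 0.000661). Tpt1, a growth-associated calcium-binding protein, was at 4049.9, 4142, 4675, 3806 and 4599.9 CPM against 5907, 6027, 6071 and 5537 CPM. It was lower in every IL10/2-Trikine mouse, with a difference of -0.53 (SE 0.07, adjusted p = 0.000661). Ubb, a ubiquitin gene, differed by -0.89 (SE 0.15, adjusted p = 0.00495), and Fth1, the heavy chain of the iron store ferritin, with a difference of -0.58 (SE 0.11, adjusted p = 0.00951). These 4 calls were kept without any 1 mouse. In the other barcodes of the libraries all 4 genes were also lower after IL10/2-Trikine. There, H3f3b was at 1542.7 and 2020.5 CPM, Tpt1 at 5118 and 5716 CPM, Ubb at 1291 and 1731 CPM and Fth1 at 4264 and 5895 CPM, after IL10/2-Trikine and mono-IL10 in turn. The part of free RNA in the 4 differences was not tested. Pglyrp1, a protein that binds bacterial peptidoglycan (-0.79, adjusted p = 0.0393), and Psmb1, a proteasome subunit (-0.58, adjusted p = 0.0489), were lower with no overlap, and were kept in 3 and 0 of the 9 fits.

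Within kept T cells, 8 of 1749 genes tested were called (0.457%), with 3 higher (0.172%) and 5 lower (0.286%), in 3 IL10/2-Trikine and 5 mono-IL10 mice. The mice were apart in 11.6% of genes tested in this set, with 5.49% above and 6.12% below. Leaving out any 1 mouse gave 1 to 14 calls, with 4 and 2 without IL10/2-Trikine mice 2 and 5, and 14, 1 and 4 without mono-IL10 mice 1, 2 and 4. Beside Actb, the higher genes were Cdk8, a kinase of the Mediator complex, and Ifitm3, an interferon-induced membrane protein. Cdk8 was at 1151, 4239 and 2331 CPM against 875, 673, 435, 795 and 716 CPM. Both groups stood apart, IL10/2-Trikine mouse 2 was highest, and the difference was 1.87 (SE 0.30, adjusted p = 0.0151). Ifitm3 was at 341, 568.3 and 955 CPM against 238, 124, 154, 214 and 116 CPM, also apart, with a difference of 1.79 (SE 0.31, adjusted p = 0.0173). In the other barcodes of the libraries, Cdk8 was at 2330.2 CPM after IL10/2-Trikine and 1932 CPM after mono-IL10, and Ifitm3 at 359 and 410.1 CPM. Macrophage or monocyte markers summed to 522 to 2898 CPM in the kept T cells of the IL10/2-Trikine mice and 280.4 to 725 CPM in those of the mono-IL10 mice. In the fit without cells that carried macrophage or tumor RNA, Cdk8 (2.48, adjusted p = 0.00215) and Ifitm3 (2.52, adjusted p = 0.0251) were the 2 genes called, in 2 IL10/2-Trikine mice. Neither passed without the T cells in which NK markers outnumbered T cell markers, at a minimum of 5 cells (1.38, adjusted p = 0.0637, and 1.92, adjusted p = 0.0932). Cdk8 was also lost without the gamma-delta T and NKT cluster (1.09, adjusted p = 0.0989) and Ifitm3 without regulatory T cells (0.76, adjusted p = 0.615).

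The lower genes within kept T cells were Cd8b1, Pnrc1, Malat1, H3f3b and B2m. Pnrc1 was at 234, 276 and 199.8 CPM against 521, 557, 673, 566 and 510.1 CPM. It was lower in each of the 3 mice, with a difference of -1.21 (SE 0.22, adjusted p = 0.0173). Malat1, a long noncoding RNA of the nucleus, differed by -0.81 (SE 0.14, adjusted p = 0.0173) and H3f3b by -0.69 (SE 0.14, adjusted p = 0.0483). In the other barcodes of the libraries, Malat1 was at 4075 and 5542 CPM and Pnrc1 at 223 and 277 CPM, after IL10/2-Trikine and mono-IL10 in turn. The calls of Cdk8, Ifitm3, Pnrc1, Malat1, H3f3b and B2m were kept in 6, 5, 4, 5, 1 and 2 of 8 fits that left out a mouse, each losing it without mono-IL10 mouse 2 among others (adjusted p up to 0.127). The 5 lower calls were also lost, with their direction kept, without cells carrying macrophage or tumor RNA and without regulatory T cells, which each left 2 IL10/2-Trikine mice, without the gamma-delta T and NKT cluster, and without the T cells in which NK markers outnumbered T cell markers. In that order Malat1 then stood at -0.82, -0.81, -0.91 and -0.91, and Pnrc1 at -1.15, -1.12, -1.18 and -0.99. Cd8b1 stood at -3.14, -2.18, -2.37 and -2.36, H3f3b at -0.78, -0.58, -0.75 and -0.81, and B2m at -0.65, -0.51, -0.65 and -0.65.

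**Figure D4:**
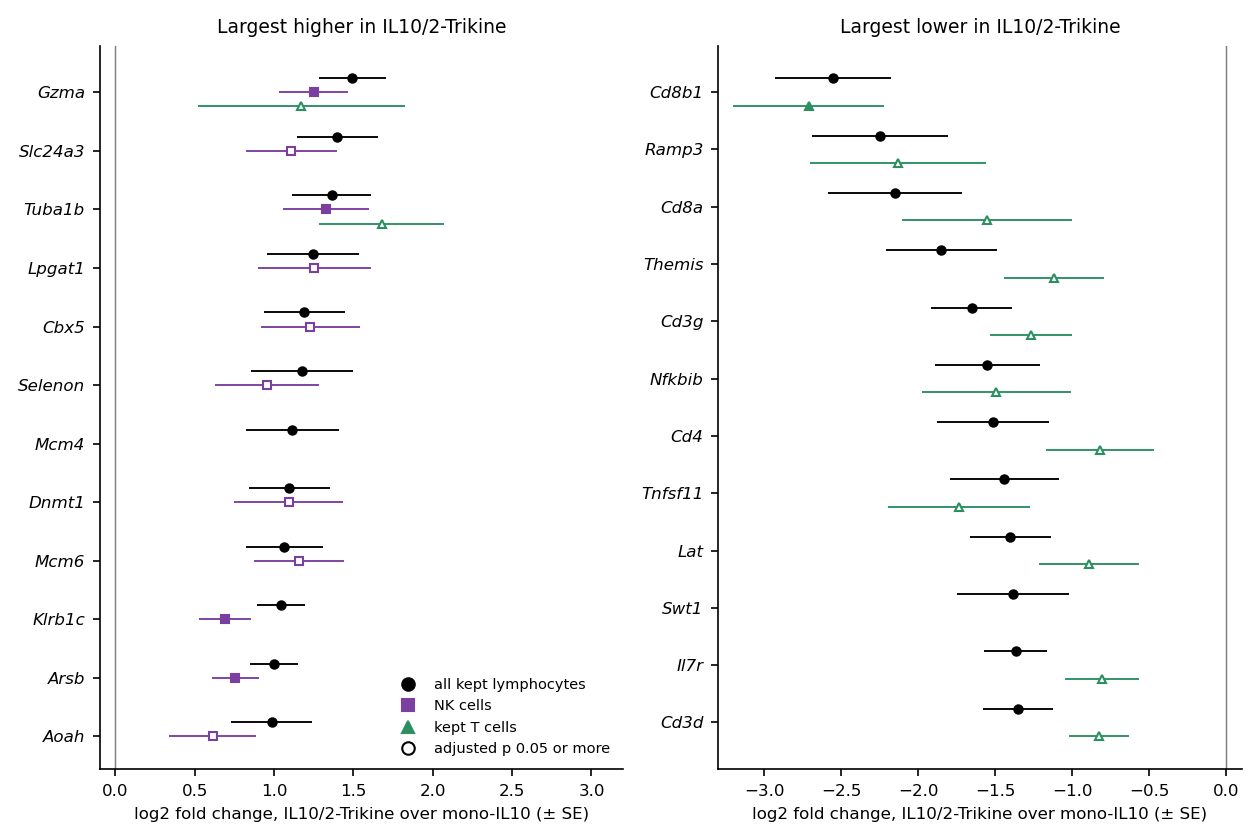
Fitted log2 fold changes ± SE of IL10/2-Trikine over mono-IL10 for the genes named by size over all kept lymphocytes. These are the 12 largest increases (left) and the 12 largest decreases (right) among called genes without overlap and with a mean of at least 20 CPM. Values within NK cells and within kept T cells are given where the gene could be tested. Open symbols did not pass the threshold. Gzma lies at 1.49 over all kept lymphocytes and 1.25 within NK cells, and Cd8b1 at -2.55 and, within kept T cells, -2.71.

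The difference of NK cells from kept T cells in their response was tested in 3 IL10/2-Trikine and 4 mono-IL10 mice with at least 10 cells of both. None of 3482 genes was called by edgeR (0.0%), with 158 at an unadjusted p under 0.05, and none by limma-voom, with 163. The smallest p belonged to Gzmc, granzyme C, with -0.63 within NK cells and 1.69 within kept T cells, and, in the fit over the mice with enough cells of both, a difference between them of -1.86 (SE 0.37, adjusted p = 0.126). It passed with no filter on low counts (-1.72, adjusted p = 3.7e-15), after thinning to 1 total (-1.86, adjusted p = 0.00164), and without IL10/2-Trikine mouse 5 or mono-IL10 mouse 5 (-2.18 and -2.26, adjusted p = 0.029 and 0.00301). Among the next by p were Cd3g, Tnfsf11, Clta and Serpinb9b, with a more positive difference in NK cells, and Ifitm3, Tyrobp, Ncr1, Ccl4 and Klrb1a, with a more positive one in kept T cells, at adjusted p from 0.503 to 0.759. Ifitm3 passed without mono-IL10 mouse 1 (-1.85, adjusted p = 0.0201), Tyrobp with no filter (-0.89, adjusted p = 0.0331), and Ccl4 with no filter (-2.71, adjusted p = 2.81e-10) and after thinning (-2.53, adjusted p = 0.0493). In the fit over all mice with enough cells of both and with the filter, genes called in only 1 set of cells were not shown to differ between the sets.

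Ribosomal protein genes gave the largest number of calls of any list. Of 80 tested genes of 84, 3 were higher and 19 lower, with a median of -0.07. Of all genes tested, 1.51% were higher and 2.99% lower. Rps4x, of the small subunit, was at 1888, 1749.5, 1683, 1848 and 1804 CPM against 2507, 2376, 2618, 2485 and 2325 CPM. Every IL10/2-Trikine mouse was below every mono-IL10 mouse, with a difference of -0.49 (SE 0.08, adjusted p = 0.000688). Rpl38, of the large subunit, was at 3752, 3955, 3945, 3816 and 4330.0 CPM against 3009.9, 2981, 2975, 2948 and 2875 CPM. It was higher in every IL10/2-Trikine mouse, by 0.38 (SE 0.06, adjusted p = 0.0016), as was Rpl41, by 0.32 (SE 0.06, adjusted p = 0.00183), while Rpl19 was lower, with a difference of -0.40 (SE 0.07, adjusted p = 0.00275). Within NK cells 1 ribosomal gene was higher and 5 were lower, of 80 tested, beside 0.481% and 0.666% of all genes tested there.

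Of 17 tested genes of antigen presentation by MHC class I, 2 were lower and 0 higher, with a median of -0.26. Of all genes tested, 2.99% were lower. B2m, the shared light chain, was at 3696, 3378, 3469, 3342 and 3174 CPM against 4428, 4869, 4537, 4571 and 4172 CPM. The groups did not overlap, with -0.45 (SE 0.06, adjusted p = 0.000356) over all kept lymphocytes, -0.44 (adjusted p = 0.011) within NK cells and -0.54 (adjusted p = 0.0347) within kept T cells. The call within NK cells was lost without mono-IL10 mouse 1 (adjusted p = 0.0594). H2-K1, a heavy chain, differed by -0.38 (SE 0.09, adjusted p = 0.0228) with overlap, kept in 4 of 10 fits that left out a mouse. The interferon-stimulated genes Isg15, a ubiquitin-like protein (-1.14, adjusted p = 0.0337), and Bst2, which tethers virus particles (-0.998, adjusted p = 0.0337), were the 2 called lower of 6 tested in a list of 30, with a median of -0.85. Each of these calls was kept in 3 of 10 fits that left out a mouse.

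Of 16 tested genes of NK maturation and tissue residency, 3 were lower over all kept lymphocytes, Il7r, Cxcr6 and Klf2, and 0 higher, with a median of -0.39. The remaining groups had 0 to 2 calls in each direction over all kept lymphocytes, where 4.49% of all genes tested were called. Of the oxidative phosphorylation genes, 76 were tested and 3 called, a share near that background, with Uqcr11 (0.57, adjusted p = 0.0189) and Atp5a1 (0.56, adjusted p = 0.0305) higher, Ndufa6 (-0.51, adjusted p = 0.0377) lower and a median of 0.02. Of 32 tested proteasome genes 2 were called, again near the background: Psmd6 (0.87, adjusted p = 0.0489) was higher and Psmb2 (-0.74, adjusted p = 0.0268) lower. Gimap3, of a family of lymphocyte GTPases, was lower (-0.68, adjusted p = 0.0208), as was Mxi1, which opposes MYC (-1.15, adjusted p = 0.0214). The calls of Uqcr11, Atp5a1, Ndufa6, Psmd6, Psmb2, Gimap3 and Mxi1 were kept in 9, 3, 3, 1, 5, 6 and 7 of 10 fits that left out a mouse. At an unadjusted p under 0.05 by edgeR there were 637 of the 3316 genes tested, in either direction. Glycolysis genes had no call by edgeR among 10 tested, with 3 at such a p, all higher, and a median of 0.31. Their summed level over all kept lymphocytes was 2676 to 3599 CPM in the IL10/2-Trikine mice and 2334 to 2849 CPM in the mono-IL10 mice, with overlap. It was 2403 to 3352 and 1914 to 2202 CPM in NK cells and 3619 to 4709 and 2629 to 3225 CPM in kept T cells, without overlap in either, where 3.92% and 5.49% of single genes tested lay above.

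The rest of each library, all barcodes outside the annotation, held 99.4% of the UMIs of the IL10/2-Trikine library and 99.1% of those of the mono-IL10 library. There, 41 of the 50 higher genes (82.0%) and 77 of the 99 lower genes (77.8%) differed in the same direction, with median log2 differences of 0.16 and -0.17. Among all genes tested, 60.9% of those above 0 and 60.8% of those below 0 did so. B2m was at 2898 and 3394 CPM there, Srgn at 608 and 1087 CPM, Rpl38 at 1956 and 1528 CPM, and Gzma at 86.1 and 29.7 CPM, after IL10/2-Trikine and mono-IL10 in turn. With 1 library for each treatment, the part of library composition and of free RNA in these differences cannot be told apart from that of the treatment.

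The mix of clusters alone, as defined above, went the same way in 32 of the 50 higher genes, with a median of 0.02 beside the fitted 0.78, and in 68 of the 99 lower genes, with -0.05 beside -0.74, where 56.4% of all genes tested went the same way. Neither this value nor the equal weight below takes in a change in the kinds of cells within a cluster. The larger part of kept T cells rich in NK markers after IL10/2-Trikine is therefore not covered by them. With NK and kept T cells given equal weight, in the 3 IL10/2-Trikine and 4 mono-IL10 mice with enough cells of both, 49 of 50 and 99 of 99 kept their direction, 10 and 30 of them past the threshold, and the median size over the 149 genes was 0.60 beside 0.74. The NK share ran with the treatment, without overlap, so a fit with both of them tells them apart poorly. With the NK share of each mouse as a covariate, 2 genes were called, Ccl8 and Vim, and the median SE over the 149 genes was 0.36 beside 0.17 without it. The median size was then 0.51, with 47 of 50 and 95 of 99 genes in the same direction.

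**Figure D5:**
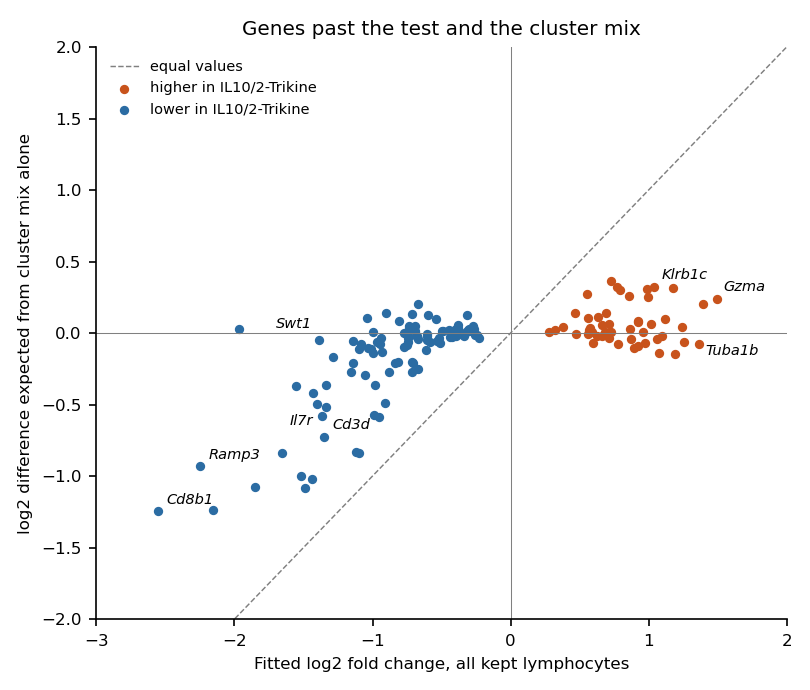
The fitted log2 fold change over all kept lymphocytes (x) against the log2 difference expected from the mix of clusters alone (y) for the 149 called genes, with 1 point per gene. Each cluster is held at its mono-IL10 level, so a change in the kinds of cells within a cluster is not part of y. On y, 115 of the 149 points lie within 0.25 of 0, and the lowest are Cd8b1 at -1.24, Cd8a at -1.24, Ccr7 and Themis at -1.08, Tnfsf11 at -1.02, Cd4 at -0.999 and Ramp3 at -0.93.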

How the data were processed

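Droplet-based single-cell libraries of CD45+ tumor cells were read from the deposited matrices, which hold UMI counts per gene and barcode made by the authors with Cell Ranger 9.0.1 on GRCm39 and not normalized. The deposited table of annotated cells gives the mouse, the cluster and the percent of mitochondrial UMIs of each cell. The authors had removed hashtag doublets from it, and the submitters' processing notes also name Seurat 5.1.0 and DESeq2 1.46.0. A further 7858 annotated cells belonged to a group outside the samples given and were not used.

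Counts of the kept cells were summed per mouse for all kept cells, NK cells and kept T cells, with at least 10 cells per mouse, which left 5 against 4 mice for NK cells and 3 against 5 for kept T cells. Genes were kept by filterByExpr with a minimum count of 10, libraries were scaled by TMM, and groups were compared by the quasi-likelihood test of edgeR 4.0.16 (R 4.3.3) with Benjamini-Hochberg adjustment and a threshold of 0.05. The NK against T difference had the mouse as a term. Cluster shares were compared by exact permutation over mice (scipy 1.17.1, numpy 2.4.6, pandas 2.3.3, Python 3.11.15). The expected effect of the cluster mix used each cluster's mono-IL10 level. The scripts were tested on simulated data.

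Genes were named by rule: the 12 highest and 12 lowest differences over all kept cells and the 8 each within NK or T cells, among called genes without overlap and with a mean of at least 20 CPM, up to 4 called members of each gene list by smallest p, 12 receptor, STAT and feedback genes always, and for the NK against T difference the 6 smallest p in each direction. Some genes that the rule takes are not reported here. Ccl8 and Vim were named after their values were seen. The members and gene lists were chosen with earlier results of these data known. The labels do not say that a hashtag number links mice of different groups. Alternatives were DESeq2 1.42.0 and its size factors, limma 3.58.1, no filter, thinning to 1 total, PBS mice in the fit, other sets of clusters or cells, and leaving out each mouse. A minimum of 5 cells, and the same without T cells in which NK markers outnumbered T cell markers, and the summed counts of the mice of the equal-weight fit, were added after the data were seen.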

Additional observations from a re-analysis of the deposited data

Results flagged for a closer look

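Of 220 groups of mice examined, 16 held a mouse far from the others of its group, where chance gives about 1 in 20, and none of these was tested further. Over all kept lymphocytes, IL10/2-Trikine mouse 1 stood apart with Lpgat1 at 137 CPM (median of the others 67.6), Jak2 at 153 (108), Srgn at 2169 (1785) and Cd244a at 80.3 (188). IL10/2-Trikine mouse 3 had Klf2 at 68.0 CPM (others 11.8) and, within NK cells, Gzma at 8621 CPM (3794). IL10/2-Trikine mouse 5 had H3f3b at 1439 CPM within NK cells (1129.7). Mono-IL10 mouse 3, the mouse with the fewest kept cells, had Cd3g at 833 CPM (others 412), Cd3d at 818 (453) and Swt1 at 134 (63.2). Mono-IL10 mouse 2 had Uqcr11 at 203 CPM (265), mono-IL10 mouse 4 had Klrb1c at 181 CPM within NK cells (240.2), and mono-IL10 mouse 1 had Stat3 at 1013 CPM within kept T cells (779).

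Among cluster shares, NK cells made up 37.5% in mono-IL10 mouse 3 (median of the others 50.1%). Regulatory T cells made up 21.4% in IL10/2-Trikine mouse 1 (4.92%), and interferon-stimulated CD8 T cells 1.30% in IL10/2-Trikine mouse 5, where the others had 0.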

How the results depend on the processing

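The median UMIs per kept cell were lower in every IL10/2-Trikine mouse than in any mono-IL10 mouse, and kept T cells were compared in 3 IL10/2-Trikine mice. Over all kept lymphocytes, 149 genes were called, and 243 with no filter on low counts, 43 after thinning to 1 total (of 945 tested), 55 without cells carrying macrophage or tumor RNA, 466 with the cycling and naive clusters included, 265 with the naive ones, 289 with the cycling ones, 2 with the NK share as a covariate, 45 at equal weight of NK and T cells by limma in 3 against 4 mice, where summed counts of the same mice gave 60 by limma and 49 by edgeR, and 87 to 160 without 1 mouse. Within NK cells, 31 became 51 by DESeq2, 75 with no filter, 20 with PBS mice in the fit and 11 to 44 without 1 mouse. Within kept T cells, 8 became 22 by DESeq2, 95 with no filter, 18 with PBS mice, 17 after thinning, 2 without cells carrying macrophage or tumor RNA and 3 without regulatory T cells (2 IL10/2-Trikine mice each), 3 without the gamma-delta T and NKT cluster, 19 without activated CD4 T cells and 1 to 14 without 1 mouse. Among choices made after the data were seen, a minimum of 5 cells gave 31, and leaving out also the T cells in which NK markers outnumbered T cell markers gave 2. A minimum of 20 T cells was not run, since it leaves 1 IL10/2-Trikine mouse. The NK against T difference gave 9 genes with no filter, 4 after thinning and 0 to 3 without 1 mouse, with 1 and 3 without IL10/2-Trikine mouse 5 and mono-IL10 mouse 1 and 1 without mono-IL10 mouse 5. The share of interferon-stimulated CD8 T cells differed by -1.91 percentage points, by -1.19 with all annotated cells as denominator (adjusted p = 0.0635, exact test) and by -2.23 to -1.41 without 1 mouse. Among named genes, directions reversed for Selenon at equal weight (-0.036). With the NK share as a covariate they reversed for Swt1 (0.11), Tnfrsf18 (0.11) and Cd244a (-0.28). They also did so with that covariate for 4 called genes that were not named over all kept lymphocytes. For other shifts the cause was not tested.

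The hashtag number as a replicate block gave 124 calls over all kept lymphocytes, 28 within NK cells and 0 within kept T cells (181 at an unadjusted p under 0.05 by edgeR). Mice that share only this number did not deviate together over all kept lymphocytes: none of the 5 same-numbered pairs had a correlation over 0.1, and 0 of 10 mice correlated best with their own number.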
